A study of Gallus gallus with 3 samples.

Results

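The genes of the translation machinery were followed in purified chicken neural crest cells (NCCs). They were the probe sets whose gene symbol starts with RPL or RPS and a digit, or with EIF or EEF and a digit, together with RPLP0, RPLP1 and RPLP2; the RPS6K kinases were left out, and RPSA was not analysed here. This gave 121 of 13009 named genes, 67 under ribosomal protein symbols and 54 under translation factor symbols, read by 235 of 38439 probe sets. Each gene with several probe sets was represented by the brightest. RPS19BP1 carries such a symbol but is not a subunit of the ribosome, since it encodes a protein that binds RPS19.

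All cells came from White Leghorn chicken embryos and were sorted on magnetic beads by HNK1, a carbohydrate epitope on the surface of migrating NCCs. The trunk cells were taken at 2 stages, one with actively migrating cells and one with cells beginning to gather into dorsal root ganglia, and the HH9 cells came from heads, so that axial level, stage and dissection cannot be told apart between HH9 and trunk. Embryos were pooled for each purification, and dissection preceded the sort to take away notochord in all of them. Their RNA was hybridised to Affymetrix chicken genome arrays, of which 3 were used here, 1 per stage. The study describes replicate preparations for each stage, and its methods say that expression was averaged over them for the comparisons. The sources used here do not say whether an array holds such an average or 1 preparation. The differences below therefore have no replicate check, the number of arrays limits their precision, and no test was run. The labels disagree on the stage of each trunk array. One is titled HH16 but its age field reads HH19, the other is titled HH19 but its age field reads HH16, and the descriptions give HH16 for both. They are called the title-HH16 and the title-HH19 array here, and which stage each holds is unsettled. The methods describe the HH9 cells as cranial, whereas the source name of that array says trunk.

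A ribosome is built of a small subunit, which reads the messenger RNA, and a large subunit, which joins the amino acids. Each is made of ribosomal RNA and many ribosomal proteins, most of them present in a single copy. Initiation factors bring the small subunit, the initiator tRNA and the capped messenger together, elongation factors deliver tRNAs and move the ribosome along, and kinases of eIF2 slow initiation under stress. In vertebrates most messengers for ribosomal proteins and elongation factors begin with a pyrimidine tract through which their translation is set together. In the neural crest, lowered ribosome production is known to underlie craniofacial disorders such as Treacher Collins syndrome, which is caused by mutations of TCOF1.

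The deposited values are signals of the MAS5 method on a linear scale, and a signal gives the level of 1 probe set, so signals were compared between arrays and not between genes. A floor was set at 99.8, which is the 40th percentile over all 3 arrays. Lower signals were set to the floor, and genes under it on both sides of a comparison have no ratio. A log2 ratio of 1 is a 2-fold difference. Because most differences here are small, a second threshold was set at a log2 ratio of 0.32 in either direction. The arrays had trimmed mean signals of 497.5 to 497.8, medians of 141 to 158, and 22610 to 23437 probe sets at or above the floor. The 3 comparisons share arrays, so they are not independent of each other, and their values are given side by side. In cell pools such as these, fewer cells of a type and less RNA per cell cannot be told apart.

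The neural crest identity of the arrays was checked on 13 marker genes. SOX10, a transcription factor of NCCs, gave a signal of 12315 at HH9, 15746 on the title-HH16 array and 17338 on the title-HH19 array. FOXD3 was also bright on all arrays, with 4273 at HH9, 6650.2 on the title-HH16 array and 6018 on the title-HH19 array. Other markers were brighter at HH9, as SOX8 was with 5006 at HH9, 1330.4 on the title-HH16 array and 569 on the title-HH19 array. Of the 13 genes, 8 were lower on the title-HH16 array than at HH9, where 49.3% of all named genes were higher. At least 2-fold lower were 4 of them (3.2% of all named genes), and the median log2 ratio was -0.43. Lower on the title-HH19 array than at HH9 were 10 (50.1% of all named genes were higher), 2 of them at least 2-fold (2.58%), with a median of -0.54. Only SOX9 lay under the floor anywhere, at 97.8 on the title-HH16 array. Markers of other cells moved between the arrays as well. The signals of 9 neuronal genes summed to 6441 at HH9, 29153 on the title-HH16 array and 11186 on the title-HH19 array. STMN2, ELAVL4, NEFM and ISL1 among them all had their highest signal on the title-HH16 array, and NTRK2 was under the floor on all arrays. The study reports STMN2, ELAVL4 and ISL1 as higher at HH19 than at HH16. That is the direction of the age fields of the trunk arrays and the reverse of their titles. Of the 8 neuronal genes with a ratio, 7 were higher on the title-HH16 array than at HH9 (49.3% of all named genes). Higher on the title-HH19 array than on the title-HH16 array was 1 (52.0%). The signals of 9 neural tube genes, PAX6 and OLIG2 among them, summed to 2770 at HH9, 6261 on the title-HH16 array and 13355 on the title-HH19 array. At least 2-fold higher on the title-HH19 array than on the title-HH16 array were 6 of these 9 (1.54% of all named genes). The same held for 3 of 10 endothelial, 2 of 7 ectodermal, 1 of 5 erythroid, 1 of 7 somite and muscle and 1 of 6 notochord genes with a ratio. At least 2-fold lower there were 2 of 6 macrophage genes (1.93%). The part of these markers in the results below was not tested.

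In the deposited signals the ribosomal proteins moved as 1 narrow block that was dimmest on the title-HH16 array, an offset that came near 0 after quantile or loess normalization. Of 66 ribosomal protein genes with a ratio, 63 (95.5%) had their lowest signal on that array, beside 35.8% of 10922 named genes. The highest signal was at HH9 for 41 of them (38.1% of the named genes), on the title-HH19 array for 24 (28.7%) and on the title-HH16 array for 1 (33.2%). RPS2, a small subunit protein whose probe set was the brightest on every array, had signals of 41744 at HH9, 33777 on the title-HH16 array and 39739 on the title-HH19 array. Among large subunit proteins, RPL19 had 32385 at HH9, 26646 on the title-HH16 array and 32331 on the title-HH19 array, so that its title-HH19 and HH9 signals were nearly equal. RPLP0, the base of the acidic stalk that recruits elongation factors, had 25778 at HH9, 22437 on the title-HH16 array and 25699 on the title-HH19 array. RPL3L, in mammals the muscle form of RPL3, was under the floor on every array and has no ratio.

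**Figure D1:**
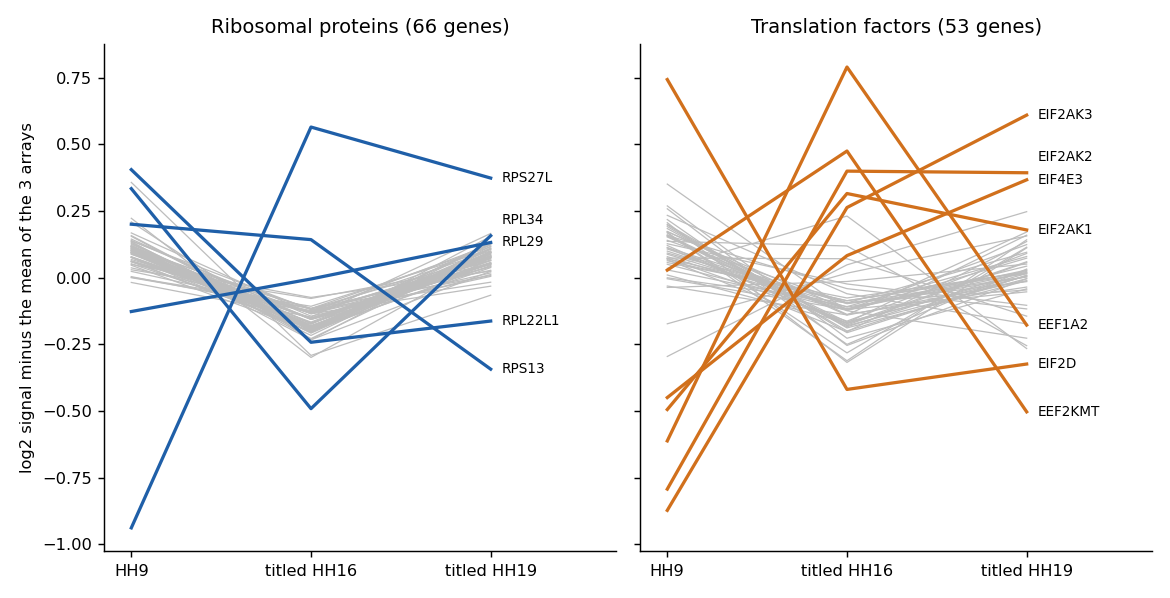
Log2 signal of each gene on each array minus its mean over the 3 arrays (y axis), with the arrays HH9, titled HH16 and titled HH19 along the x axis, for 66 ribosomal protein genes (left) and 53 translation factor genes (right). Each line is 1 gene, and the coloured, named lines leave a bundle that is lowest on the title-HH16 array. There 63 ribosomal protein genes and 37 translation factor genes have their lowest signal, beside 35.8% of named genes.

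Between the trunk arrays, ribosomal protein genes were higher on the title-HH19 array than on the title-HH16 array, by a median log2 ratio of 0.24 in the deposited signals, which became 0.29 with each array centred on its median, 0.02 after quantile normalization and 0.05 after loess normalization. Of the 66 genes, 64 were higher on the title-HH19 array, beside 52.0% of 10681 named genes, whose median was 0.02. That count was 64 with median centring as well, but 35 after quantile normalization and 45 after loess normalization. The share of 52.0% is for the deposited signals and has no counterpart here for the other scalings. A log2 ratio of 0.32 or more was reached by 8 of them (16.2% of all named genes), and -0.32 or less by 1 (17.7%). At least 2-fold higher and at least 2-fold lower were 0 (1.54% and 1.93% of all named genes). The shift was therefore shared but small, and the share of ribosomal protein genes past the smaller threshold was not above that of all genes.

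Between the title-HH16 array and HH9 the direction was opposite, with a median log2 ratio of -0.28 in the deposited signals, -0.44 with median centring, -0.01 after quantile normalization and -0.02 after loess normalization. Median centring moved the median of all named genes too, to -0.16, against -0.01 as deposited. Of the 66 genes, 2 were higher on the title-HH16 array than at HH9, beside 49.3% of 10697 named genes. Higher there were 1 of 67 with median centring, 23 of 67 after quantile normalization and 26 of 66 after loess normalization. The 49.3% is for the deposited signals, so these counts under other scalings have no share of all named genes beside them. The smaller threshold of 0.32 was passed upwards by 1 gene (25.6% of all named genes) and downwards by 12 (23.2%). At least 2-fold higher was 1 gene, RPS27L (6.8%), and 0 were at least 2-fold lower (3.2%).

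For ribosomal proteins the title-HH19 array and the HH9 array were close in the deposited signals. Here the median of the 66 genes was -0.02 as deposited, -0.13 with median centring, 0.00 after quantile normalization and 0.03 after loess normalization, and median centring moved all named genes to -0.10. Of the 66 genes, 25 were higher on the title-HH19 array than at HH9, beside 50.1% of 10643 named genes. Higher there were 5 of 67 with median centring, 32 of 67 after quantile normalization and 42 of 66 after loess normalization. The 50.1% is for the deposited signals, so these counts under other scalings have no share of all named genes beside them. Past the smaller threshold, 1 was higher (23.4% of all named genes) and 3 were lower (19.6%). At least 2-fold higher was again RPS27L alone (5.34%), and 0 were at least 2-fold lower (2.58%).

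**Figure D2:**
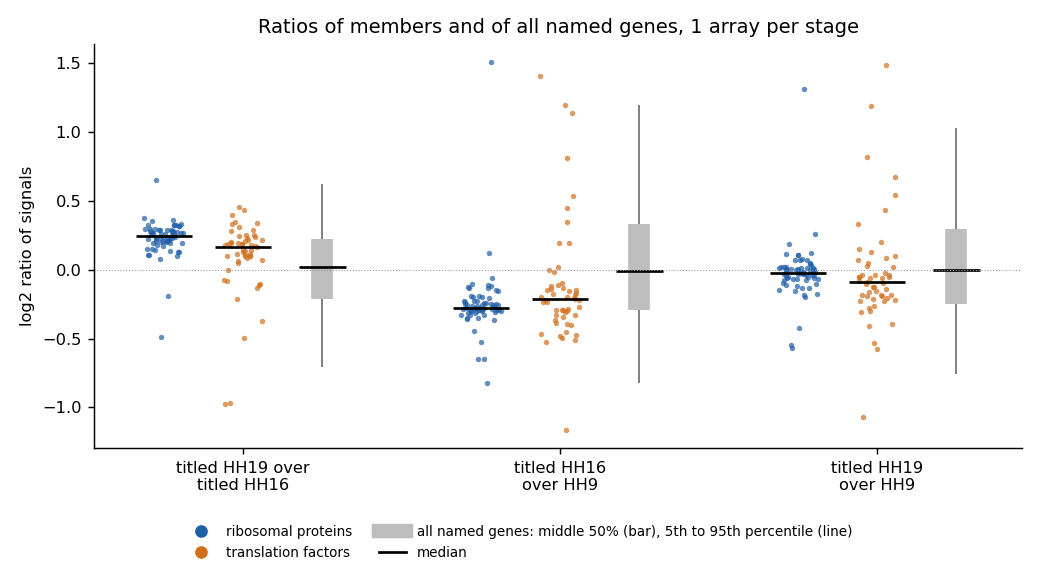
Log2 ratio of signals (y axis) for each ribosomal protein gene (blue points) and each translation factor gene (orange points) in the 3 comparisons along the x axis, with black lines at the medians. Grey bars hold the middle 50% of all named genes and grey lines run from their 5th to their 95th percentile; the ribosomal proteins are packed around 0.24, -0.28 and -0.02.

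The 62 core ribosomal proteins, which leave out the paralogs and RPS19BP1, had the same offset in both subunits. For the title-HH19 array over the title-HH16 array, the median log2 ratio was 0.25 for 37 large subunit proteins, 0.26 for 22 small subunit proteins and 0.22 for the 3 stalk proteins. For the title-HH16 array over HH9, the medians were -0.28, -0.27 and -0.29 in the same order of large subunit, small subunit and stalk. Within 0.1 of their own median lay 49 of the 62 core proteins (79.0%) between the trunk arrays, 50 (80.6%) for the title-HH16 array over HH9 and 48 (77.4%) for the title-HH19 array over HH9. The same shares over all named genes were 24.9%, 17.2% and 21.3%, but few of those genes are as bright. Over 195 other genes with a mean signal of at least 10000 the shares were 58.5%, 50.3% and 59.0%.

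Bright genes outside the members shared much of the offset. Genes with a mean signal of at least 10000 numbered 269, and 74 of them (27.5%) were members, 57 of these ribosomal. The median log2 ratio of the title-HH19 array over the title-HH16 array was 0.23 for the 74 members and 0.18 for the other 195 genes, of which 175 were higher on the title-HH19 array. For the title-HH16 array over HH9 it was -0.27 for the members and -0.22 for the others, and 21 of the others were higher on the title-HH16 array. Among genes that are not members, the median of the trunk comparison was 0.07 for 3731 genes with a mean signal of at least 1000 and 0.14 for 645 genes of at least 5000. The offset thus followed signal level, and quantile and loess normalization, which level the arrays at each signal, took away most of it. Both of these fits rest in part on the ribosomal protein genes themselves, and which of the scalings is nearer to the amount of RNA in the cells was not tested.

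**Figure D3:**
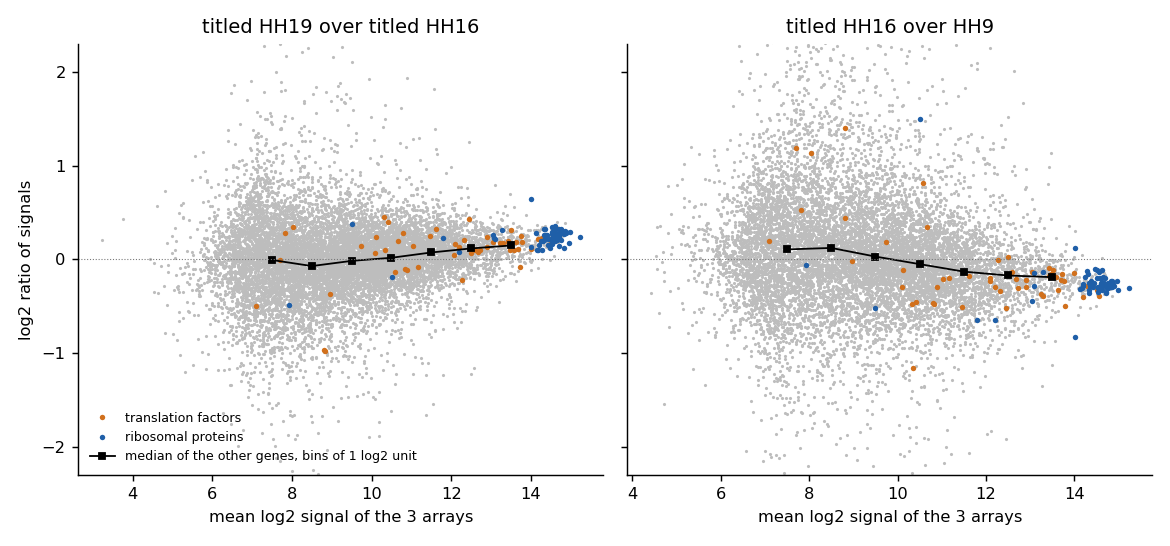
Log2 ratio of signals (y axis) against the mean log2 signal of the 3 arrays (x axis) for the title-HH19 array over the title-HH16 array (left) and the title-HH16 array over HH9 (right), with ribosomal protein genes in blue, translation factor genes in orange, other named genes in grey and the median of the other genes in bins as black squares; the few ratios beyond the y axis are not drawn. The squares lead towards the ribosomal proteins at the bright end, upwards on the left and downwards on the right.

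A few ribosomal protein genes left the block, and for RPS27L, RPL34 and RPL22L1 the difference between title-HH16 and HH9 stayed under all 4 scalings. RPS27L is a paralog of the small subunit protein RPS27 and in human cells a target of p53. Its signal was 759.8 at HH9, 2155 on the title-HH16 array and 1887 on the title-HH19 array. It was 2.84-fold higher on the title-HH16 array than at HH9 and 2.48-fold higher on the title-HH19 array than at HH9, while the trunk arrays had a log2 ratio of -0.19. For the title-HH16 array over HH9 its log2 ratio of 1.50 was 1.35 with median centring, 1.49 after quantile normalization and 1.55 after loess normalization. RPS27 itself was not analysed here.

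RPL34, a large subunit protein, had the deepest dip. Its signals were 20796 at HH9, 11736 on the title-HH16 array and 18401 on the title-HH19 array. It was 1.57-fold higher on the title-HH19 array than on the title-HH16 array, with a log2 ratio of 0.65 as deposited and 0.47 after loess normalization. For the title-HH16 array over HH9 its log2 ratio was -0.83 as deposited, -0.62 after quantile normalization and -0.60 after loess normalization.

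RPL22L1 and RPL22 are paralogs that can take the same place in the large subunit. RPL22L1 had 6220.4 at HH9, 3971 on the title-HH16 array and 4196 on the title-HH19 array, so it was high at HH9 and lower on both trunk arrays. Its log2 ratios over HH9 were -0.65 for the title-HH16 array and -0.57 for the title-HH19 array. RPL22 had 20641 at HH9, 16725 on the title-HH16 array and 17973 on the title-HH19 array, and its log2 ratios over HH9 were -0.30 and -0.20 for the same arrays. Both genes were thus highest at HH9, with the larger ratios for RPL22L1, whose other probe sets had signals of 212 or less. RPS19BP1 had a similar order, with 4581 at HH9, 2921 on the title-HH16 array and 3416 on the title-HH19 array.

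In the deposited signals, RPL29 was the only core ribosomal protein with a higher signal on the title-HH16 array than at HH9. Its signals were 15144 at HH9, 16482 on the title-HH16 array and 18123 on the title-HH19 array. All 5 of its probe sets had this direction for the title-HH16 array over HH9, with log2 ratios of 0.12 to 0.88, while median centring turned the ratio of the brightest to -0.04. Between the trunk arrays its probe sets ran in both directions.

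RPS13 and RPL31 were read by dim probe sets. For RPS13, a small subunit protein, the set used had 281 at HH9, 270.4 on the title-HH16 array and 193 on the title-HH19 array, a log2 ratio of -0.49 between the trunk arrays that no other core protein shared. A brighter probe set that is annotated to both RPS13 and GNAL was left out for its double annotation, and it had 27576 at HH9, 23089 on the title-HH16 array and 26677 on the title-HH19 array. Its log2 ratios of 0.21, -0.26 and -0.05 for the 3 comparisons lie inside the block. RPL31 had 845 at HH9, 588 on the title-HH16 array and 764 on the title-HH19 array.

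The other named ribosomal proteins stayed close to the block. The highest trunk ratios after RPL34 and RPL31 were those of RPL26L1 (0.36), RPL7 (0.35), RPL6 (0.33) and RPS3 (0.33), each for the title-HH19 array over the title-HH16 array. RPL26L1, which carries RPL26 as a synonym in RefSeq, had 25757 at HH9, 21690 on the title-HH16 array and 27769 on the title-HH19 array. RPL39L, with RPL39 as a synonym, had 25540.2 at HH9, 20842 on the title-HH16 array and 25472 on the title-HH19 array, which places it inside the block. RPL7L1, a paralog of RPL7 with a part in ribosome assembly, had 8776 at HH9, 7923 on the title-HH16 array and 9258 on the title-HH19 array. Its trunk log2 ratio was 0.22, against 0.35 for RPL7, whose signals were 25645 at HH9, 20153 on the title-HH16 array and 25703 on the title-HH19 array. The lowest trunk ratios after RPS13, RPS27L and RPL22L1 were those of RPS12 and RPL14, at 0.10 each. RPS12 had 20760.3 at HH9, 19051 on the title-HH16 array and 20403 on the title-HH19 array in the set used. Its other 3 probe sets with a ratio, all far dimmer, ran the other way between the trunk arrays, with log2 ratios of -0.40, -1.03 and -2.14. The set with -2.14 had 667 at HH9, 675 on the title-HH16 array and 153 on the title-HH19 array. The -1.03 is a bound, since that set had 39.1 on the title-HH19 array, which was raised to the floor.

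**Figure D4:**
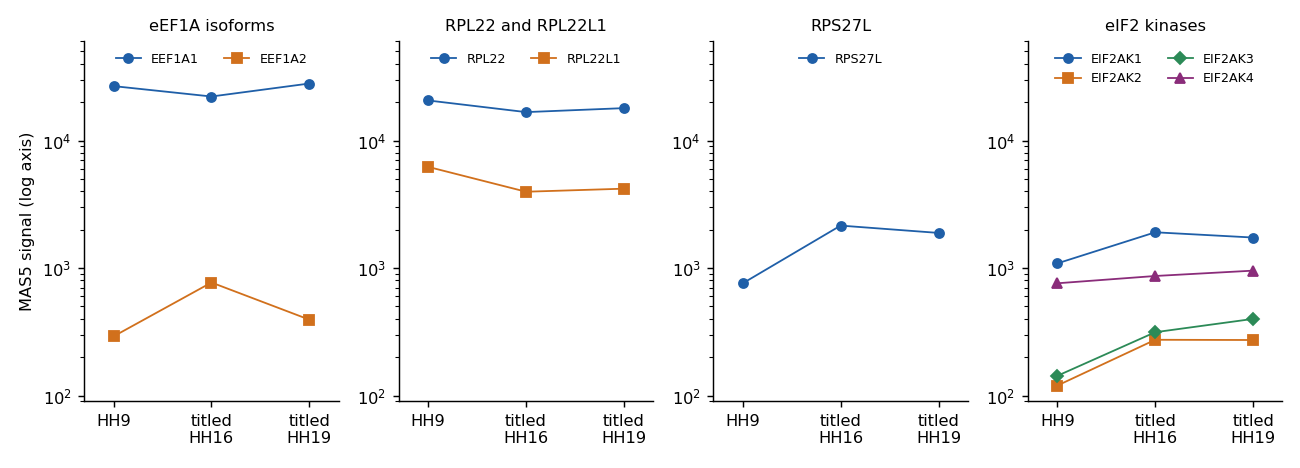
MAS5 signal on a log axis (y axis) on the HH9, titled HH16 and titled HH19 arrays (x axis) for the eEF1A isoforms, RPL22 with RPL22L1, RPS27L and the eIF2 kinases, 1 line per gene and 1 point per array. EEF1A2, RPS27L and 3 of the 4 kinases are at least 1.75-fold higher on the title-HH16 array than at HH9, while EEF1A1, RPL22 and RPL22L1 are lower there.

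Translation factor genes had the same order of arrays as the ribosomal proteins in the deposited signals, with a wider spread. For the title-HH19 array over the title-HH16 array, the median log2 ratio of 53 genes was 0.17 as deposited, 0.21 with median centring, 0.06 after quantile normalization and 0.03 after loess normalization. Higher on the title-HH19 array were 42 of the 53 as deposited (52.0% of all named genes) and 33 after loess normalization. Shares of all named genes in this paragraph are for the deposited signals, and the loess counts have none beside them. As deposited, 6 were higher past the smaller threshold (16.2%) and 4 lower past it (17.7%), and 0 were 2-fold apart. For the title-HH16 array over HH9, the median was -0.21 as deposited, -0.37 with median centring, -0.07 after quantile normalization and -0.06 after loess normalization. Higher on the title-HH16 array were 10 of the 53 as deposited (49.3%) and 20 after loess normalization, with 7 higher (25.6%) and 15 lower (23.2%) past the smaller threshold. At least 2-fold higher were 3, EEF1A2, EIF2AK2 and EIF2AK3 (6.8%), and 1, EIF2D, was at least 2-fold lower (3.2%). For the title-HH19 array over HH9, the median was -0.09 as deposited, -0.20 with median centring, -0.03 after quantile normalization and -0.04 after loess normalization, with 16 of 53 higher (50.1%), and past the smaller threshold 7 were higher (23.4%) and 5 lower (19.6%). Past 2-fold were EIF2AK2 and EIF2AK3, which were higher (5.34%), and EIF2D, which was lower (2.58%).

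The kinases of eIF2 differed from most other factors. These enzymes phosphorylate eIF2 alpha, which slows initiation. All 4 were higher than at HH9 on the title-HH16 array (49.3% of all named genes) and on the title-HH19 array (50.1%). EIF2AK3 (PERK), which senses unfolded protein in the endoplasmic reticulum, had 143 at HH9, 314 on the title-HH16 array and 399 on the title-HH19 array. Relative to HH9 it was 2.20-fold higher on the title-HH16 array and 2.79-fold higher on the title-HH19 array. EIF2AK2 (PKR), which senses double-stranded RNA, had 119.8 at HH9, 274 on the title-HH16 array and 273 on the title-HH19 array, so that the trunk arrays were alike and both more than 2-fold above HH9. Its HH9 signal lies just above the floor of 99.8.

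EIF2AK1 (HRI), which is regulated by heme, had 1088 at HH9, 1909 on the title-HH16 array and 1736 on the title-HH19 array, and it was 1.75-fold higher on the title-HH16 array than at HH9. EIF2AK4 (GCN2), which senses amino acid shortage, had 759.99 at HH9, 867 on the title-HH16 array and 955 on the title-HH19 array, the smallest difference of the 4. A second, dimmer probe set of EIF2AK4 had 132 at HH9, 274 on the title-HH16 array and 127 on the title-HH19 array, a different order. The median log2 ratio of the 4 kinases for the title-HH16 array over HH9 was 0.97 as deposited, 0.81 with median centring, 0.89 after quantile normalization and 0.95 after loess normalization. A floor at the 60th percentile, under which the signals of EIF2AK2 and EIF2AK3 at HH9 lie, brought it to 0.32.

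Their substrate and its exchange factor had the array order of the ribosomal proteins in the deposited signals. In the sets used, the 3 subunits of eIF2 and 4 of eIF2B, which recharges eIF2 with GTP, were all higher on the title-HH19 array than on the title-HH16 array as deposited (52.0% of all named genes). Their median log2 ratio there was 0.17. All 7 were lower than at HH9 on the title-HH16 array and on the title-HH19 array, where 49.3% and 50.1% of all named genes were higher. Dimmer second probe sets of EIF2S3, EIF2B3 and EIF2S2 had log2 ratios of 0.41, 0.56 and -0.004 for the title-HH16 array over HH9. Between the trunk arrays these dimmer sets had -0.06, -0.58 and 0.19. After loess normalization 6 of the 7 were lower on the title-HH16 array than at HH9, with a median of -0.17. EIF2S1, the alpha subunit that the kinases phosphorylate, had 11514 at HH9, 8796 on the title-HH16 array and 9944 on the title-HH19 array. EIF2B5, the catalytic subunit of eIF2B, had 1534 at HH9, 1123 on the title-HH16 array and 1477 on the title-HH19 array, with a trunk log2 ratio of 0.40.

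Among factors that find the start codon, EIF2D stood apart. EIF2D, which can deliver tRNA to the ribosome without GTP and takes part in recycling, had 2179 at HH9, 973 on the title-HH16 array and 1039.6 on the title-HH19 array. It was 2.24-fold lower on the title-HH16 array than at HH9 and 2.10-fold lower on the title-HH19 array than at HH9, and the log2 ratio of the first comparison was between -1.32 and -1.13 under all scalings. EIF1, which guards the choice of start codon, had 10948 at HH9, 10253 on the title-HH16 array and 11699 on the title-HH19 array. Its paralog EIF1B had 1328 at HH9, 1686 on the title-HH16 array and 1936 on the title-HH19 array, with a log2 ratio of 0.54 for the title-HH19 array over HH9, against 0.10 for EIF1. EIF5B, the GTPase that joins the subunits, had 2319.5 at HH9, 1669 on the title-HH16 array and 1554 on the title-HH19 array, and was thus lower on both trunk arrays. EIF2A had a trunk log2 ratio of 0.33 and was highest on the title-HH19 array.

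The 10 analysed subunits of eIF3, the scaffold of the initiation complex, were all higher on the title-HH19 array than on the title-HH16 array in the deposited signals (52.0% of all named genes). Their median log2 ratio there was 0.13 and became 0.02 after loess normalization. Relative to HH9 all 10 were lower on the title-HH16 array as deposited (49.3% of all named genes were higher) and 7 after loess normalization. EIF3G was the farthest from the others, with 6419 at HH9, 4463 on the title-HH16 array and 6012 on the title-HH19 array. Its trunk log2 ratio of 0.43 was 0.33 after loess normalization. EIF3D shares its probe set with FOXRED2 and was left out, and EIF3C and EIF3K were not analysed here.

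The eIF4 group binds the cap and unwinds the messenger, and its 11 genes were less uniform. As deposited, 8 were higher on the title-HH19 array than on the title-HH16 array (52.0% of all named genes). EIF4A2, a helicase, had 27693 at HH9, 21108 on the title-HH16 array and 24390.4 on the title-HH19 array. EIF4A3, the related helicase of the exon junction complex, had 14529 at HH9, 12342 on the title-HH16 array and 14715 on the title-HH19 array. Their log2 ratios over HH9 for the title-HH16 array were -0.39 and -0.24. A second, dimmer probe set of EIF4A2 had -0.36 in that comparison but -0.04 for the title-HH19 array over the title-HH16 array. EIF4B, which stimulates the helicase, had 1442 at HH9, 1033 on the title-HH16 array and 1414 on the title-HH19 array. EIF4H, its relative, had 16901 at HH9, 11979 on the title-HH16 array and 13622 on the title-HH19 array. Both had their lowest signal on the title-HH16 array, and EIF4B had the highest trunk log2 ratio of all factors, 0.45.

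The cap-binding proteins ran in different directions. EIF4E, the main cap-binding protein, had 2550.3 at HH9, 2221 on the title-HH16 array and 2107 on the title-HH19 array. EIF4E2 had 2066 at HH9, 1493 on the title-HH16 array and 1816 on the title-HH19 array. In the sets used, both were higher at HH9 than on either trunk array. The other sets of EIF4E, both far dimmer, had trunk log2 ratios of 0.13 and 0.28, against -0.08 in the set used. The set with 0.13 had 215 at HH9, 207 on the title-HH16 array and 227 on the title-HH19 array. EIF4E3 had its highest signal on the title-HH19 array, with 166 at HH9, 239.99 on the title-HH16 array and 292 on the title-HH19 array, a log2 ratio of 0.82 for the title-HH19 array over HH9. Its HH9 signal is weak. EIF4E1B, in vertebrates an oocyte form, was dim with 139.9 at HH9, 160.3 on the title-HH16 array and 114 on the title-HH19 array.

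Of the scaffolds that join cap and helicase, EIF4G1 had 1113 at HH9, 1027 on the title-HH16 array and 1216 on the title-HH19 array. EIF4G3 had 5175 at HH9, 5167 on the title-HH16 array and 4450.1 on the title-HH19 array, which made it 1 of 11 factors lower on the title-HH19 array than on the title-HH16 array. EIF4G2, which works without the cap-binding protein, had 17056 at HH9, 15368 on the title-HH16 array and 16587 on the title-HH19 array. Its second probe set went the other way between the trunk arrays, with 3629 at HH9, 4117 on the title-HH16 array and 2904 on the title-HH19 array. The inhibitors of EIF4E were mixed. EIF4EBP1, which mTOR signalling inactivates, had 11431 at HH9, 10604 on the title-HH16 array and 13155 on the title-HH19 array, a trunk log2 ratio of 0.31. EIF4EBP2 had 5599.6 at HH9, 5687 on the title-HH16 array and 5951 on the title-HH19 array. EIF4ENIF1, which carries EIF4E to the nucleus and to processing bodies, had 2224 at HH9, 1814 on the title-HH16 array and 1677 on the title-HH19 array. A second, dimmer probe set of EIF4ENIF1 had a trunk log2 ratio of 0.20, against -0.11 in the set used.

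In elongation, the isoforms of eEF1A, which delivers tRNAs, ran in opposite directions between the trunk arrays in the deposited signals. They did so for the title-HH16 array over HH9 as well, while both were higher on the title-HH19 array than at HH9. EEF1A1, the general form, had 26748 at HH9, 22171 on the title-HH16 array and 28036 on the title-HH19 array. EEF1A2, which in mammals is the form of neurons and muscle, had 291 at HH9, 771 on the title-HH16 array and 394 on the title-HH19 array. It was 2.64-fold higher on the title-HH16 array than at HH9, and for the title-HH19 array over the title-HH16 array its log2 ratio was -0.97, against 0.34 for EEF1A1. The 4 scalings left this ratio of EEF1A2 between -0.97 and -0.92, while that of EEF1A1 was 0.39 with median centring, 0.08 after quantile normalization and 0.13 after loess normalization. The order of its signals is that of the summed neuronal markers given above, and their part in it was not tested.

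In the sets used, the subunits of eEF1B, which recharges eEF1A with GTP, stayed with the ribosomal proteins in the deposited signals. EEF1B2, EEF1D and EEF1G had trunk log2 ratios of 0.22, 0.23 and 0.23 and log2 ratios of -0.40, -0.28 and -0.30 for the title-HH16 array over HH9. A second, dimmer probe set of EEF1G had -0.03 between the trunk arrays and -0.34 for the title-HH16 array over HH9. EEF2, which moves the ribosome along, had 25988 at HH9, 20716 on the title-HH16 array and 23337 on the title-HH19 array. EEF2K, the kinase that inhibits EEF2, was under the floor on all arrays. EEF2KMT, a methyltransferase of EEF2, had 461 at HH9, 628 on the title-HH16 array and 319 on the title-HH19 array. Its second probe set had 82.7 at HH9, 143 on the title-HH16 array and 161 on the title-HH19 array, so that the probe sets disagree between the trunk arrays and for the title-HH19 array over HH9. EEF1AKMT1, a methyltransferase of eEF1A, had 547 at HH9, 540.3 on the title-HH16 array and 417 on the title-HH19 array. In the sets used, both methyltransferases had their lowest signal on the title-HH19 array. EIF6, which keeps large subunits from joining too early, had 3387 at HH9, 2374 on the title-HH16 array and 2824 on the title-HH19 array. EIF5A2 had 7604 at HH9, 6130.4 on the title-HH16 array and 6582 on the title-HH19 array, and EIF5A was not analysed here.

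Genes that build ribosomes were shifted further than the ribosomal proteins between the title-HH16 array and HH9. Of 56 ribosome biogenesis genes, 53 were lower on the title-HH16 array than at HH9, where 49.3% of all named genes were higher, and 41 of them were past the smaller threshold (23.2% of all named genes), and 1 was higher past it (25.6%). At least 2-fold lower were RRN3 and MYC (3.2%). The median log2 ratio of the 56 genes was -0.49 as deposited, -0.65 with median centring, -0.41 after quantile normalization and -0.37 after loess normalization, so it was well below 0 under each scaling, beside -0.01 to -0.02 for the core ribosomal proteins after quantile and loess normalization. For the title-HH19 array over HH9 the median was -0.24 as deposited, with 51 of 56 genes lower (50.1% of all named genes were higher), and -0.20 after loess normalization. Between the trunk arrays 49 were higher on the title-HH19 array (52.0% of all named genes), with a median of 0.23 as deposited and 0.17 after loess normalization.

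NOP56, a core protein of box C/D nucleolar particles that guide methylation of ribosomal RNA, had 5804 at HH9, 2914 on the title-HH16 array and 3716 on the title-HH19 array. RRN3, which brings RNA polymerase I to the ribosomal genes, had 1836 at HH9, 866 on the title-HH16 array and 994 on the title-HH19 array. TCOF1, the treacle gene, had 4221 at HH9, 2672 on the title-HH16 array and 3568 on the title-HH19 array. All of these were highest at HH9 and lowest on the title-HH16 array. MYC, a transcription factor that raises ribosome production, had 4845 at HH9, 1143 on the title-HH16 array and 2390.0 on the title-HH19 array, while its relative MYCN had 8823 at HH9, 7457 on the title-HH16 array and 8195 on the title-HH19 array. MYC is itself 1 of the 56 biogenesis genes. Its signals had the order of those of NOP56, RRN3 and TCOF1, with larger ratios, and a part of MYC in the other genes was not tested. MYCN had a log2 ratio of only -0.24 for the title-HH16 array over HH9.

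**Figure D5:**
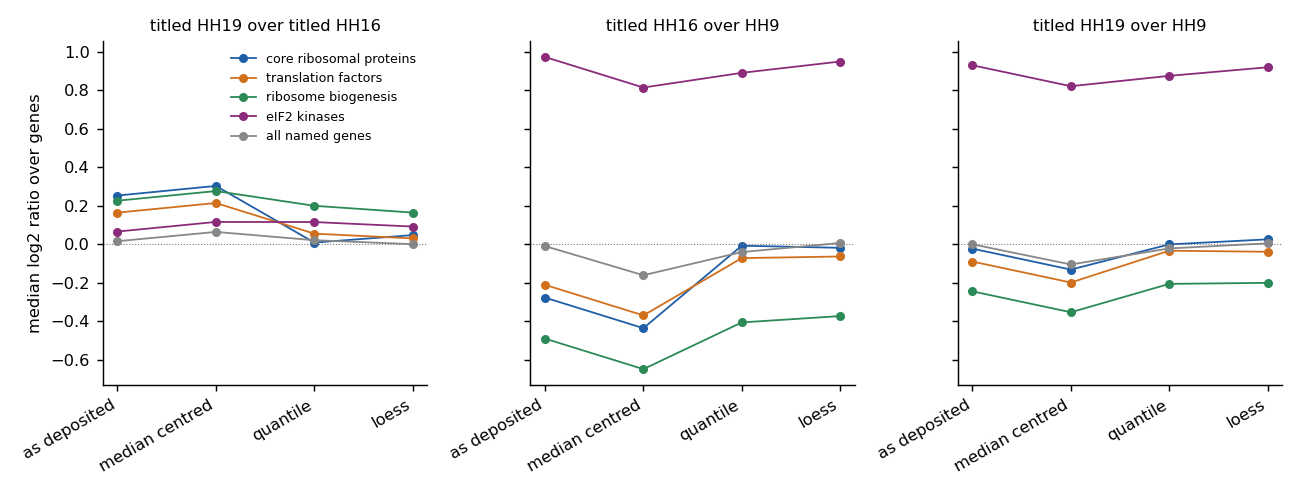
Median log2 ratio over genes (y axis) for the 3 comparisons under 4 scalings of the arrays (x axis), 1 line each for 62 core ribosomal proteins, translation factors, ribosome biogenesis genes, the 4 eIF2 kinases and all named genes. The core ribosomal proteins come near 0 after quantile and loess normalization, while for the title-HH16 array over HH9 biogenesis genes stay at -0.37 or lower and eIF2 kinases at 0.81 or higher.

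Other steps of translation were described in the same way. Of 7 genes of release and recycling, HBS1L, which rescues stalled ribosomes, was the only one past 2-fold in any comparison, with 1890.3 at HH9, 828 on the title-HH16 array and 1021 on the title-HH19 array, and its partner PELO had 2267 at HH9, 2935 on the title-HH16 array and 2484 on the title-HH19 array. Of 20 cytosolic tRNA synthetase genes, 19 were higher on the title-HH19 array than on the title-HH16 array (52.0% of all named genes), with a median log2 ratio of 0.19 as deposited and 0.08 after loess normalization, and 0 were 2-fold apart in any comparison. For the title-HH16 array over HH9 their median was -0.33 as deposited. There 16 of the 20 were lower, where 49.3% of all named genes were higher, and 10 were lower past the smaller threshold (23.2%). Of 22 genes of poly(A) binding and mTOR signalling, 20 or 21 had a ratio in each comparison, and 0 of these were 2-fold apart. Between the trunk arrays 8 of 21 were higher on the title-HH19 array (52.0% of all named genes), with a median of -0.07 as deposited. MTOR had 706 at HH9, 695 on the title-HH16 array and 537 on the title-HH19 array.

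Targets of the eIF2 kinase pathway were mostly higher on the title-HH19 array than on the title-HH16 array. Of 13 genes of the integrated stress response with a ratio, 11 were higher on the title-HH19 array than on the title-HH16 array (52.0% of all named genes), with a median log2 ratio of 0.41 as deposited and 0.33 after loess normalization, and 4 were at least 2-fold higher (1.54%). For the title-HH16 array over HH9 the median was 0.12 as deposited and -0.04 with median centring, with 8 of 13 higher (49.3%), 2 at least 2-fold higher (6.8%) and 2 at least 2-fold lower (3.2%). For the title-HH19 array over HH9 the median was 0.34, with 11 of 13 higher (50.1%) and 3 at least 2-fold higher (5.34%). CHAC1, a glutathione-degrading enzyme, had 223 at HH9, 411 on the title-HH16 array and 2127 on the title-HH19 array. ATF3, a stress-induced transcription factor, had 144 at HH9, 500.4 on the title-HH16 array and 1120.5 on the title-HH19 array. Both had their lowest signal at HH9 and their highest on the title-HH19 array. ATF4, the transcription factor whose own translation the pathway raises, had 9894 at HH9, 9477 on the title-HH16 array and 13196 on the title-HH19 array. ASNS, asparagine synthetase, had 2179.9 at HH9, 926 on the title-HH16 array and 1869 on the title-HH19 array. It was thus highest at HH9, unlike CHAC1 and ATF3. Each eIF2 kinase had its lowest signal at HH9 in the set used, and a part of the kinases in the levels of these genes was not tested. PHGDH of serine synthesis had 441 at HH9, 219 on the title-HH16 array and 558 on the title-HH19 array. CEBPB, a transcription factor of the same response, had 75.3 at HH9, which is under the floor, 301 on the title-HH16 array and 365 on the title-HH19 array. It was thus at least 3.02-fold higher on the title-HH16 array and at least 3.66-fold higher on the title-HH19 array than at HH9.

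The choice of probe set bears on single members, and RPS12 had the widest range among the members in the trunk comparison, with log2 ratios from -2.14 to 0.10. Of the members, 60 have 1 probe set and 61 have several. Among 33 ribosomal protein genes with at least 2 probe sets that gave a ratio, all sets had 1 direction in 14 genes between the trunk arrays, in 20 for the title-HH16 array over HH9 and in 18 for the title-HH19 array over HH9. For 22 translation factor genes the same counts were 8, 16 and 11.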

How the data were processed

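Total RNA of HNK1-sorted neural crest cells was profiled on the Affymetrix chicken genome array, with 1 array for each of HH9, title-HH16 and title-HH19. The authors had the arrays run by an outside company and deposited linear intensity values, which per the labels come from MAS5 (version and settings: not given in the sources used here). MAS5 scales each array to a common trimmed mean, which leaves differences that depend on signal level, and the trimmed means (2% at each end) were 497.5 to 497.8.

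After 96 control probe sets were left out, 27168 of 38439 probe sets carried 1 gene symbol of the platform annotation, 177 carried several and were not used for single genes, and 11094 carried none. A RefSeq table (assembly GRCg7b) held the identifiers of 118 of the 121 members and changed 0 of their symbols. A gene was read by its brightest probe set (mean log2 signal over the 3 arrays). Before log2 ratios were taken, signals below the 40th percentile of the 3 arrays together, 99.8, were set to that value. With 1 array per group, genes were counted past 2-fold and past a log2 ratio of 0.32, and groups were described by counts and medians beside all named genes, with no test. Every share of all named genes is that of the deposited signals, and counts of genes under other scalings have none beside them. The study's methods call genes at 2-fold with a p over replicates, of which only the fold could be applied.

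In each comparison the named members were the 6 ribosomal protein and 8 translation factor genes with the highest and with the lowest ratios among those at or above the floor on both arrays, all members past 2-fold and sets of related genes, and of the other pathway lists the genes past 2-fold. The neural crest markers, RPS2, RPL19, RPLP0, EIF2S1, EEF2, the eEF1B subunits and, in the other lists, genes short of 2-fold were named in addition as examples after their values were seen. The members, the lists and the thresholds were chosen with earlier results of these data known. Alternatives were median centring, quantile and loess normalization (cyclic loess in limma 3.58.1, R 4.3.3), other floors (20th percentile, 60th percentile, none), other thresholds (1.5-fold and 0.32 in place of 2-fold), removal of probe sets with the suffixes of multiple matches, and the median across a gene's probe sets. The counting was tested on simulated data with known folds. Gene sequences were not analysed here. The software was numpy 2.4.6, scipy 1.17.1, matplotlib 3.10.9 and pandas 2.3.3 under Python 3.11.15.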

Additional observations from a re-analysis of the deposited data

How the results depend on the processing

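With 1 array per group no library could be left out. No paired analysis was possible because each group holds 1 array. The scaling of the arrays moved the block of ribosomal proteins most. Their median log2 ratio for title-HH19 over title-HH16 was 0.017 after quantile and 0.048 after loess normalization, and that for title-HH16 over HH9 was -0.44 with median centring, -0.0072 after quantile and -0.018 after loess normalization. For title-HH19 over HH9 it was -0.13 with median centring. For translation factors the medians were 0.056 after quantile and 0.031 after loess normalization for title-HH19 over title-HH16, then -0.37 with median centring, -0.071 after quantile and -0.063 after loess normalization for title-HH16 over HH9, and -0.20 with median centring for title-HH19 over HH9.

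Ribosomal protein genes past a log2 ratio of 0.32 in either direction numbered 22 with median centring, 3 after quantile and 3 after loess normalization, against 9, for title-HH19 over title-HH16. For title-HH16 over HH9 they numbered 56, 6 and 6 in the same order of scalings, against 13. For title-HH19 over HH9 they numbered 13 without probe sets that may bind several transcripts and 9 with the median over probe sets, against 4. Translation factors past it for title-HH16 over HH9 numbered 38 with median centring and 14 after quantile and 14 after loess normalization, against 22. Shares of all named genes past it were counted only for the deposited signals. The counts under other settings have no such share beside them and are not a result about the members. Median centring also moved the median of all named genes, as given above.

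Lower thresholds raised the count of 2-fold genes. For title-HH19 over title-HH16, where 0 ribosomal protein genes were 2-fold apart, 1 was past 1.5-fold and 9 past 0.32, and 1 was 2-fold apart without probe sets that may bind several transcripts. For title-HH16 over HH9, where 1 was 2-fold apart, 4 were past 1.5-fold, 13 past 0.32 and 2 were 2-fold apart without those sets. For title-HH19 over HH9, where 1 was 2-fold apart, 4 were past 0.32 and 4 were 2-fold apart without those sets. That setting left 41 of 67 ribosomal protein genes with a ratio. Of translation factors for title-HH19 over title-HH16, where 0 were 2-fold apart, 2 were past 1.5-fold and 10 past 0.32, and 1 was 2-fold apart with the 20th percentile as the floor and 1 without any floor. For title-HH16 over HH9, where 4 were 2-fold apart, 22 were past 0.32 and 2 were 2-fold apart with a floor at the 60th percentile. For title-HH19 over HH9, where 3 were 2-fold apart, 5 were past 1.5-fold, 12 past 0.32 and 1 was 2-fold apart with a floor at the 60th percentile. The higher floor raises the HH9 signals of EIF2AK2 and EIF2AK3. Past 1.5-fold in the deposited signals, 592 of 10681 named genes were higher and 783 lower for title-HH19 over title-HH16. For title-HH16 over HH9 these were 1606 and 1123 of 10697, and for title-HH19 over HH9 1359 and 884 of 10643. Shares of all named genes were not counted under the other floors and choices of probe set.

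A change of sign was counted only for named genes whose main log2 ratio was 0.32 or more in either direction. Smaller ratios were not counted, although the probe sets of RPS12 and EIF4G2, for example, ran in both directions between the trunk arrays. Of those counted, EEF2KMT turned to a log2 ratio of 0.079 for title-HH19 over HH9 with the median over its probe sets. EIF4H turned to 0.052 for title-HH16 over HH9 when read by its dim set without a suffix of multiple matches. In these comparisons the probe sets of each gene had opposite directions, with log2 ratios of -0.53 and 0.69 for EEF2KMT and -0.50 and 0.05 for EIF4H. The 0.69 is a lower bound, since the HH9 signal of that set, 82.7, was raised to the floor. Why the sets differ was not tested. Over all alternatives, log2 ratios of named genes moved by more than 0.1 in 254 instances besides these 2 changes of sign, and by 0.1 or less in 744. Weak signals near the floor of 99.8 limit EIF2AK2, EIF2AK3, EIF4E1B and EIF4E3.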

Other observations

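The ribosome of mitochondria is built of its own proteins, encoded in the nucleus. Of 67 such genes 65 had a ratio for the title-HH16 array over HH9, and 44 of them were lower on the title-HH16 array, where 49.3% of all named genes were higher. Lower past a log2 ratio of -0.32 were 20 of the 65 (23.2% of all named genes), 2 were higher past 0.32 (25.6%) and 0 were 2-fold apart, with a median of -0.09 as deposited and -0.06 after loess normalization. Between the trunk arrays 46 of 64 were higher on the title-HH19 array (52.0% of all named genes), with a median of 0.11 as deposited and 0.10 after loess normalization. Their offset was thus smaller than that of the cytosolic ribosomal proteins in the deposited signals, and it had the same direction in both comparisons.

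Genes of the cell cycle were mostly higher on the title-HH19 array than on the title-HH16 array in the deposited signals. Of 17 proliferation genes this held for 15 as deposited (52.0% of all named genes) and 11 after loess normalization, with a median log2 ratio of 0.15 as deposited and 0.04 after loess normalization. As deposited 7 were higher on the title-HH16 array than at HH9 (49.3%), with a median of -0.10 that became 0.09 after loess normalization. Their summed signals were 107297 at HH9, 98431 on the title-HH16 array and 112571 on the title-HH19 array, and 0 were 2-fold apart in any comparison.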
